A study of Saccharomyces cerevisiae with 15 samples.

Results

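The 37 genes described here encode the machinery that carries proteins made in the cytosol into budding yeast mitochondria and folds them there. They were taken as a fixed list of gene identifiers, with no cut-off on measured values, out of the 7127 identifiers counted in every library. Earlier results of these data were known when the list was chosen. All 37 were found in the R64 genome annotation under the listed symbol, with the coding length given in the count files. The list holds 7 subunits of the TOM complex, 5 small TIM chaperones, 3 subunits of the TIM22 translocase, 4 of the TIM23 translocase, 6 genes of the import motor, 2 of the disulfide relay, 4 of the outer membrane sorting machinery, 2 matrix chaperonin genes, 2 subunits of the matrix processing peptidase and 2 prohibitins.

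Nearly all mitochondrial proteins are encoded in the nucleus and enter through the TOM complex of the outer membrane. From there, proteins with a cleavable presequence pass the TIM23 channel of the inner membrane and are pulled in by a motor built around the Hsp70 protein Ssc1, metabolite carriers are escorted by the small TIM proteins to the TIM22 translocase, small cysteine-rich proteins are oxidised by Mia40 and Erv1, and beta-barrel proteins are passed to the SAM complex. In the matrix, the peptidase Mas1/Mas2 removes the presequence and the Hsp60/Hsp10 chaperonin folds many of the arriving proteins. The prohibitins form a ring-shaped scaffold in the inner membrane.

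RNA-seq of poly(A) mRNA and ribosome profiling, which sequences the mRNA fragments covered by 80S ribosomes, were done on wild-type cells of the Mother Enrichment Program (MEP) strain UCC8773 and on a UCC8773 derivative lacking CTH2 (cth2Δ; the gene is listed as TIS11). Cth2 is an RNA-binding protein that binds AU-rich elements when iron is scarce, and the study asked whether its loss affects replicative lifespan through mitochondria. In an MEP strain, estradiol switches on a recombinase made in daughter cells and so stops daughters from dividing, while mothers keep budding. All groups had nourseothricin and hygromycin B in the first culture, were biotin-labelled, grew in YPD with estradiol, and were collected on magnetic beads after 2 h (young) or 30 h (old), so the old cells differ from the young ones in culture time as well as in replicative age. The 15 libraries form 8 groups: wild-type young, wild-type old, cth2Δ young and cth2Δ old, each by RNA-seq and by ribosome profiling. Each group has 2 libraries except RNA-seq of old cth2Δ, which has 1.

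Libraries held 1629345 to 6198680 counts, and the 37 genes took 0.607% to 1.01% of them. Every one of the 37 passed the filter on low counts in every comparison, and the lowest count of any member in a library was 21. Levels are given as CPM, with library sizes corrected by TMM (trimmed mean of M values), and levels of different genes are compared only per kilobase of coding sequence. The 3 counts taken as a detection floor correspond to 0.484 to 1.84 CPM by library, and such a floor covers counting error only. The deleted gene matched the labels: TIS11 had 28 to 516 counts in each wild-type library and 1 to 17 in each cth2Δ library. Its cth2Δ levels were highest in old footprint library 2 (5.33 CPM) and the old RNA-seq library (3.52 CPM). The lowest wild-type level was 6.41 CPM, in young RNA-seq library 2. The source of the cth2Δ reads was not tested. The young libraries of a group stood further apart than the old ones. Across all genes, the SD of the log2 difference between the pair of wild-type young RNA-seq libraries was 0.63, against 0.29 between the old ones. Among the 37 genes the same SDs were 0.26 and 0.19.

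A motif for the RNA-binding protein Puf3, TGTANATA, which is known from mRNAs of mitochondrial proteins, was searched for first. On the coding strand, in the 300 nt that follow the stop codon, it was found in 27 of the 37 genes (73.0%), against 16.7% of the 5671 genes scanned. In the 150 nt window it was found in 21 members (56.8%), against 13.0% of genes. The 27 genes held 34 matches, 6 genes had more than 1, and the median distance from the stop codon to the first match was 66 nt. The most common forms were TGTATATA (17 matches) and TGTAAATA (12 matches). The sites below are those of the 7 genes with an adjusted p under 0.05 by edgeR for age in cth2Δ footprints. Of all genes, 16.2% of those with a match and 17.4% of those without one passed that threshold. Each site is shown as 30 bases of R64, 5′ to 3′ on the coding strand, with the match in capitals.
TIM22 (YDL217C), chrIV:67928-67957, minus strand: tgttttatattTGTAAATAtcacctatctt
TIM54 (YJL054W), chrX:335827-335856, plus strand: tatataaaatcTGTAAATAtaataaaatgt
TIM12 (YBR091C), first match, chrII:427125-427154, minus strand: cTGTAAATAtgaggactgtctgtgctgttt
TIM12 (YBR091C), second match, chrII:427107-427136, minus strand: tctgtgctgttTGTATATAatagtaacctg
TIM10 (YHR005C-A), chrVIII:115498-115527, minus strand: gattcatatccTGTATATAcaagtaacatt
TIM17 (YJL143W), chrX:147726-147755, plus strand: tctctcaaccaTGTACATAttatatattga
PAM18 (YLR008C), chrXII:165416-165445, minus strand: tagataagtctTGTAAATAacacggaaagc
ERV1 (YGR029W), chrVII:544258-544287, plus strand: acagattctcgTGTATATAacactccaatc
TIM12 has a match starting 2 nt after its stop codon, and its matches overlap in the windows printed but not in the motif itself. The 10 genes with no match were SSC1, PAM16, TIM21, TIM50, SAM35, SAM37, SAM50, MDM10, MAS1 and PHB2.

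The AU-rich motif that Cth2 is known to bind, TTATTTAT or TATTTATT (2 forms that can overlap), was found downstream of only 3 of the 37 genes (8.11%), TIM50, TOM22 and TOM7, against 10.9% of all genes scanned. TOM22, the central receptor of the TOM complex, was the member with this motif closest to the stop codon and is shown for that reason, with the motif in capitals.
TOM22 (YNL131W), chrXIV:379312-379341, plus strand: ttgcacagttcTATTTATTgctttagagta
In promoters, taken as 250 bases before to 50 after the start of the coding sequence and read on both strands, the core heat shock element GAANNTTC or TTCNNGAA was found in 9 members (24.3%), against 22.9% of genes. HSP60 held 3 such matches and HSP10 held 2. The matches of HSP10 overlap each other, as do the upstream pair of HSP60, and the HSP60 match nearest the gene is shown in capitals.
HSP60 (YLR259C), chrXII:665028-665057, minus strand: gaataatataaGAAAATTCccacgagaaaa
CCAAT, the Hap2/3/4/5 motif read here with its reverse complement ATTGG, was found in 14 members (37.8%), against 43.6% of genes. A match is a string of letters in a window and is not shown to be bound.

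**Figure D1:**
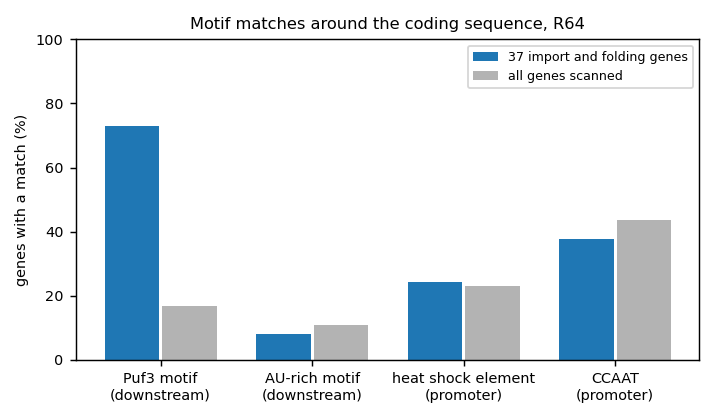
Share of genes with a motif match (vertical axis, %), for the 37 import and folding genes (blue bars) and for all genes scanned (grey bars), in the 300 nt downstream of the stop codon or in the promoter window. The Puf3 motif is in 73.0% of the 37 genes and 16.7% of all, while the other motifs differ by less between the bars.

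In young wild-type cells, the level of mRNA per kilobase was highest for HSP10, the lid of the chaperonin, at 1912 ± 218 CPM per kb (SD, n = 2), followed by TOM5 at 924 ± 49.7, TIM10 at 807 ± 43.1 and HSP60, the chaperonin barrel, at 777 ± 18.2. SSC1, the matrix Hsp70, had 528 ± 35.7. The lowest mRNA levels were those of MDM10, a SAM and ER-contact protein, at 20.8 ± 3.31, MAS1 at 40.5 ± 7.73 and TIM9 at 41.9 ± 4.74 CPM per kb. By footprints the order at the top was different. SSC1 came first at 1584 ± 79.9 CPM per kb, then HSP60 at 1394 ± 25.6 and HSP10 at 1162 ± 143, and MDM10 was again last at 12.8 ± 2.66. SSC1 ranked first and HSP60 second by footprints in all 4 conditions.

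Footprint levels per kb were not the same for all subunits of a complex, a description with no test. In the TIM22 translocase, footprints per kb in young wild type were 34.6 ± 0.95 for the channel TIM22, 30.3 ± 2.81 for TIM18 and 24.5 ± 2.40 for TIM54 (SD, n = 2). In the TIM23 translocase they were 211 ± 23.4 for TIM17, 147 ± 23.3 for the channel TIM23, 134 ± 10.1 for the receptor TIM50 and 43.4 ± 7.28 for TIM21. In the TOM complex they ranged from 254 ± 5.17 for the receptor TOM70 to 512.5 ± 49.3 for TOM22, with the channel TOM40 at 412 ± 10.2. The prohibitins had 235 ± 34.9 (PHB1) and 148 ± 22.4 (PHB2), and the processing peptidase subunits 30.4 ± 3.01 (MAS1) and 43.2 ± 2.03 (MAS2).

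The footprint level relative to mRNA, a measure of ribosome load that needs no length correction, spread widely. In young wild type the ratio of footprint CPM to mRNA CPM was 3.01 ± 0.36 for SSC1 (SD over 2 lysates), 2.02 ± 0.37 for TOM70, 1.79 ± 0.01 for HSP60 and 1.64 ± 0.03 for TOM40. It was 0.24 ± 0.03 for SAM35, a SAM receptor subunit, and 0.34 ± 0.02 for TOM5, a small TOM subunit. The median of all genes was 0.71. SSC1 stood above 98.1% of all genes in each lysate, while SAM35 stood above no more than 9.73%. The coding sequence of SSC1 is 77.1% identical to that of ECM10, its paralogue, over 94.3% of its length, the closest such pair among the members, so short reads of these genes may not have been separated everywhere.

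**Figure D2:**
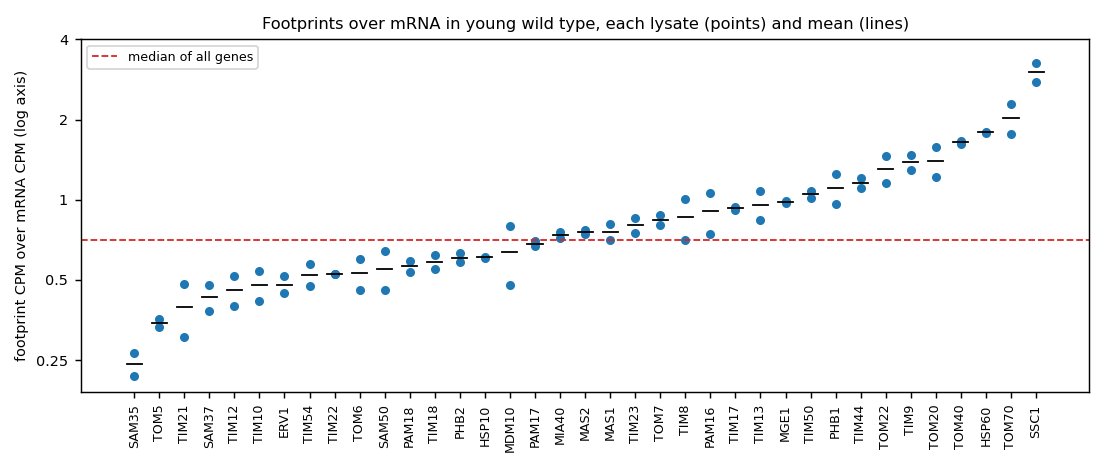
Ratio of footprint CPM to mRNA CPM in young wild type (vertical log axis) for each of the 37 genes, ordered by mean. Points are the 2 lysates, short lines their means and the dashed line is the median of all genes at 0.71; SSC1 at 3.01 and SAM35 at 0.24 are the ends of the range.

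Old and young wild-type cells were first compared at the mRNA level. No member was called, which here means an adjusted p under 0.05 in edgeR's quasi-likelihood test with Benjamini-Hochberg adjustment over all genes tested; 0.951% of the 5991 genes were. At an unadjusted p under 0.05 there were 3 of the 37 members and 1194 of the 5991 genes. DESeq2 called 0 members and 260 genes. In these bulk samples a lower level per cell and fewer cells with a transcript cannot be told apart. The largest log2 fold changes (old over young) belonged to TIM23, the presequence channel, and TIM54, a subunit of the carrier translocase. TIM23 mRNA was at 117 and 128 CPM in the young libraries and at 197 and 194 CPM in the old ones. That is a log2 change of 0.67 (SE 0.19, adjusted p = 0.151), with both old libraries above both young ones. TIM54 mRNA went from 69.7 and 66.1 CPM to 101 and 97.4 CPM, a log2 change of 0.55 (SE 0.21, adjusted p = 0.223).

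The lowest mRNA fold changes were those of MGE1, the nucleotide exchange factor of Ssc1, and MDM10. MGE1 mRNA stood at 205 and 252 CPM in young and 138 and 160.4 CPM in old wild type, a log2 change of -0.62 (SE 0.20, adjusted p = 0.182). MDM10 had 27.3 and 34.3 CPM in young and 19 and 24.1 CPM in old cells, a log2 change of -0.52 (SE 0.25, adjusted p = 0.292). In both genes the young and old libraries did not overlap. Of the matrix chaperones, SSC1 mRNA was at 987 and 1087 CPM in young and 1081 and 1169 CPM in old cells, and HSP60 mRNA at 1358 and 1314 CPM against 1331 and 1251 CPM, and in both the groups overlapped. HSP10 mRNA was at 663 and 564 CPM in young and 508 and 436 CPM in old cells, a log2 change of -0.38 (SE 0.20, adjusted p = 0.322), with no overlap.

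Taken over the list, 17 of the 37 log2 fold changes of mRNA were above 0, and the median was -0.05, against 0.00 for all genes. In 12 members both old libraries exceeded both young ones, and in 12 both lay below. Among all genes these shares were 30.1% and 27.8%. All 4 SAM genes had values below 0, from -0.52 to -0.16, and all 3 TIM22 genes values above 0, from 0.04 to 0.55; none was called. Signs this close to 0 depend on scaling. With library totals in place of TMM, the median of all genes moved up by 0.31 in this comparison, by 0.34 in wild-type footprints and by 0.46 in cth2Δ footprints, and 2 of the 4 SAM genes and 29 of the 37 members then had values above 0. Fold changes below are therefore relative to the bulk of genes.

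Footprints of old and young wild-type cells differed in 1 member by the test, TIM22 (YDL217C), which forms the channel of the carrier translocase. Its footprints were at 22.0 and 21.2 CPM in young cells and 37.3 and 46.0 CPM in old cells, a log2 change of 0.95 (SE 0.16, adjusted p = 0.0350 by edgeR), with no overlap between the groups. Of all 5308 genes, 2.98% were called in this comparison, 2.02% higher and 0.961% lower in old cells, against 2.7% of the members. With library totals 7 members were called, and the split over all genes moved from 107 higher and 51 lower to 657 higher and 34 lower. The call on TIM22 was lost when any 1 of the 4 libraries was left out, with a log2 fold change of 0.79 to 1.06. Such a fit has 1 library in a group and called fewer genes in all, so the loss does not show that the value depends on a given library. The call was also lost by edgeR with replicate number as a block (adjusted p = 0.106) and with only these 4 libraries in the fit (adjusted p = 0.106). Those fits called 46 of 5308 and 74 of 5219 genes.

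The next highest log2 fold change was that of TIM12, a peripheral small TIM that docks carriers on TIM22. Its footprints went from 13.3 and 10.9 CPM to 21.6 and 20.6 CPM, a log2 change of 0.80 (SE 0.18, adjusted p = 0.0640). TIM54 footprints were at 32.7 and 37.6 CPM in young and 56.8 and 62.0 CPM in old cells. TIM18, the remaining subunit of that translocase and a relative of a succinate dehydrogenase subunit, stood at 16.4 and 18.7 CPM against 16.4 and 17.9 CPM, with full overlap.

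At the low end were MGE1 and MDM10, as in mRNA. MGE1 footprints were at 203 and 245 CPM in young and 159 and 129 CPM in old wild type, a log2 change of -0.64 (SE 0.17, adjusted p = 0.0951). MDM10 footprints were at 21.7 and 16.2 CPM against 14.7 and 15.4 CPM, a log2 change of -0.33 (SE 0.25, adjusted p = 0.452), which was -0.10 without young library 1, -0.53 without young library 2 and 0.01 with library totals. SSC1 footprints were at 3224 and 3002 CPM in young and 2676 and 2776 CPM in old cells, and those of HSP60 at 2427 and 2365 CPM against 2214 and 2229.6 CPM. For both chaperones the old libraries lay below the young ones on the TMM scale and the fold change was above 0 with library totals, and neither difference was called. The old libraries lay above the young ones in 11 members and below in 10, against 30.7% and 27.3% of all genes. The median log2 fold change was -0.03, against 0.01 for all genes.

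Old and young cth2Δ cells differed in the footprints of 7 members, 6 of them higher in old cells (TIM12, TIM22, TIM54, TIM17, TIM10 and PAM18) and 1 lower (ERV1). That is 18.9% of the members, beside 17.2% of all genes called in this comparison, and the share called among the members is near the background. In the direction of old cells, 16.2% of members and 9.16% of genes were called higher, and 2.7% and 8.06% lower. With library totals 20 members were called, all higher, and the split over all genes moved from 486 higher and 428 lower to 1688 higher and 139 lower. The genes called higher take part in carrier import (TIM22, TIM54, TIM12, TIM10), in the TIM23 channel (TIM17) and in the motor (PAM18).

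TIM12 had the largest change. Its footprints were at 7.43 and 7.60 CPM in young and 26.3 and 25.7 CPM in old cth2Δ cells, a log2 change of 1.78 (SE 0.19, adjusted p = 0.00371 by edgeR). The pair of libraries in each group lay close together and the groups were far apart. TIM22 footprints went from 18.4 and 17.3 CPM to 44.7 and 43.2 CPM, a log2 change of 1.30 (SE 0.17, adjusted p = 0.00717). TIM54 went from 33.2 and 36.3 CPM to 65.7 and 77.4 CPM, a log2 change of 1.04 (SE 0.16, adjusted p = 0.0117). TIM18 was again level, at 14.1 and 15.4 CPM against 15.2 and 15 CPM.

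TIM10, which with TIM9 forms the hexamer that carries hydrophobic precursors across the intermembrane space, had 94.1 and 74.1 CPM in young and 135 and 150.4 CPM in old cth2Δ cells (log2 fold change 0.77, SE 0.18, adjusted p = 0.0314). Its partner TIM9 had the lowest log2 fold change of the list, with 23.3 and 18.6 CPM in young and 14.2 and 11.6 CPM in old cells (-0.71, SE 0.24, adjusted p = 0.0856), and was not called. These partners had values of opposite sign in cth2Δ footprints, but that of TIM9 ranged from -0.88 to -0.24 across the alternative fits. In wild-type footprints TIM9 was at -0.03. TIM17, a channel-forming subunit of the TIM23 complex, had 91.9 and 78.5 CPM against 167 and 149 CPM (log2 fold change 0.89, SE 0.17, adjusted p = 0.0196). Its neighbour TIM23 had 115 and 89.7 CPM against 109.8 and 117 CPM, with overlap.

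PAM18, the J-protein that stimulates the ATPase of Ssc1, was at 36.8 and 37.8 CPM in young and 54.1 and 59.2 CPM in old cth2Δ cells (log2 fold change 0.60, SE 0.15, adjusted p = 0.0376). ERV1, the oxidase that recycles Mia40, was at 52.7 and 50.9 CPM against 32.6 and 33.2 CPM (log2 fold change -0.65, SE 0.13, adjusted p = 0.0237). With library totals as scaling the value of ERV1 was -0.19 and it was not called (adjusted p = 0.312). SSC1 footprints were at 3019 and 2741 CPM in young and 2606 and 2489 CPM in old cells, and those of HSP60 at 2441 and 2209 CPM against 2045 and 1939.9 CPM. In both, old libraries lay below young ones on the TMM scale, fold changes were above 0 with library totals, and neither difference was called.

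The old libraries lay above the young ones in 16 members and below in 10, against 33.4% and 31.9% of all genes. Whichever library was left out, some of the 7 calls were lost. Such a fit has 1 library in a group, and its number of calls over all genes moved as well. In these fits the log2 fold change was 1.76 to 1.80 for TIM12, 1.25 to 1.34 for TIM22 and 0.91 to 1.15 for TIM54. It was 0.78 to 1.01 for TIM17, 0.60 to 0.94 for TIM10, 0.53 to 0.66 for PAM18 and -0.68 to -0.63 for ERV1. With replicate number as a block 3 members were called, with only these 4 libraries in the fit 2, and with DESeq2 5 (not PAM18 or ERV1). In the same order 252 of 5308, 164 of 5192 and 932 of 5308 genes were called, against 914 in the fit used above. The summed level of 9 daughter-cell genes, such as the cell separation genes CTS1 and DSE4, was 2255 and 1784 CPM in young cth2Δ footprints. In old ones it was 767 and 911 CPM. Of the 9, 5 were called lower, beside 8.06% of all genes, and none was at 0 in any library. In cth2Δ mRNA the sum was 1317 and 1230 CPM in young cells and 1021 CPM in the single old library. In wild-type footprints the same sum was 1382 and 2022 CPM in young and 1679 and 1798 CPM in old cells, with none of the 9 called. In wild type 6 of the 9 had log2 fold changes above 0 in footprints and 8 in mRNA. The part of such cells in the footprint changes of the 37 genes was not tested.

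**Figure D3:**
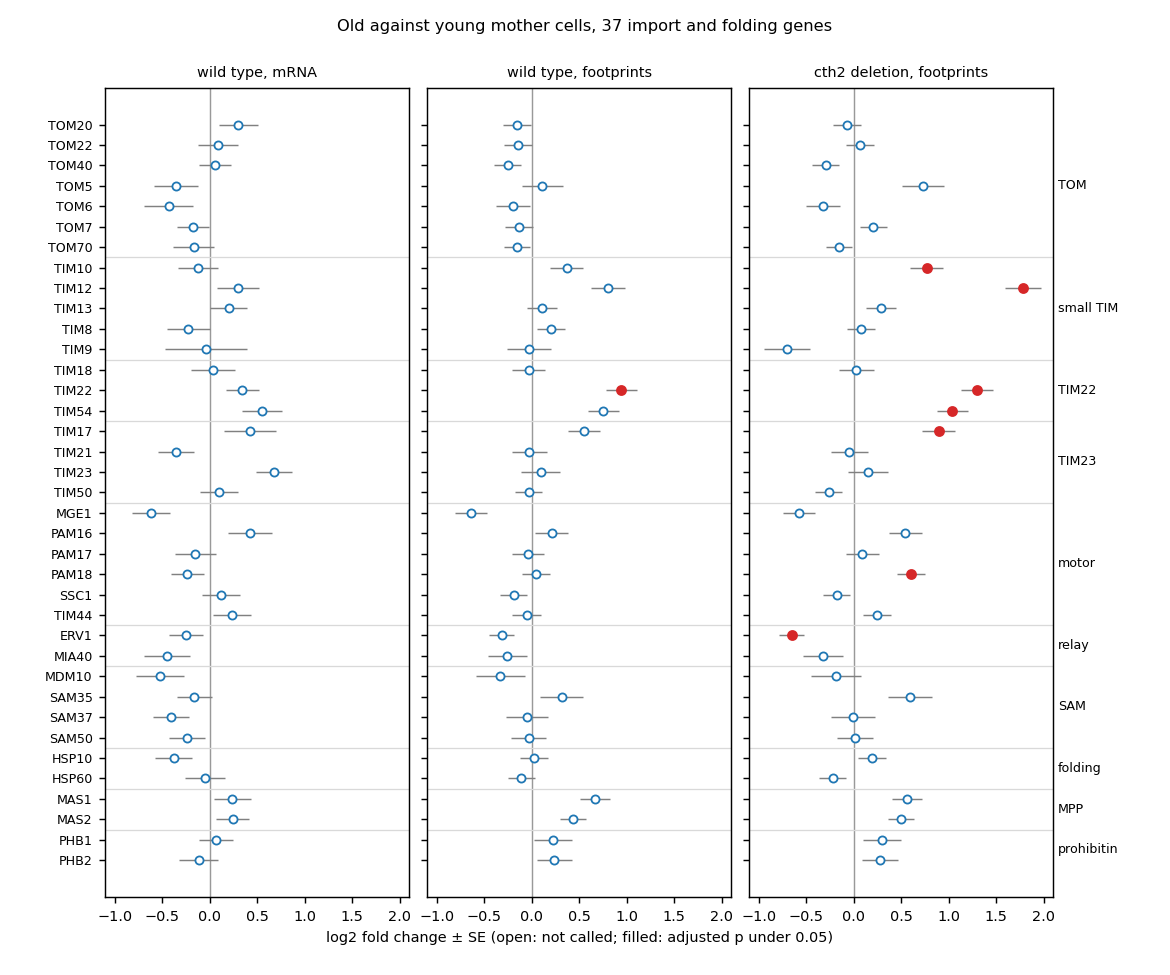
Log2 fold change of old over young cells (horizontal axis) with its SE for each of the 37 genes, grouped by role from the TOM complex at the top to the prohibitins at the bottom, for wild-type mRNA, wild-type footprints and cth2Δ footprints. Filled points have an adjusted p under 0.05; they number 0, 1 and 7, and TIM12 in cth2Δ at 1.78 is the highest.

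The footprint comparisons of age in the strains share no library. Across the 37 genes the log2 fold changes of wild type and cth2Δ had a correlation of 0.88 (Pearson, a description across genes, which are not independent replicates), and 31 of 37 (83.8%) had the same sign. Over all 5308 genes the correlation was 0.88 and 83.7% had the same sign. Both strains had old libraries above young ones in 9 members (MAS1, MAS2, SAM35, TIM10, TIM12, TIM13, TIM17, TIM22 and TIM54) and below in 8 (ERV1, HSP60, MGE1, MIA40, SSC1, TOM40, TOM6 and TOM70). Among all genes the corresponding shares were 23.6% and 21.4%. With library totals 36 of the 37 wild-type and 34 of the 37 cth2Δ values were above 0, so genes of the second set lay lower relative to the bulk of genes. The peptidase subunits MAS1 and MAS2 belong to the first set: MAS1 footprints were at 39.2 and 45.1 CPM in young and 62.6 and 71.1 CPM in old wild type, and at 49.5 and 42.6 CPM against 68.8 and 66.7 CPM in cth2Δ. Neither gene was called in either strain. In wild type, mRNA and footprint fold changes of age, which come from the same lysates, had a correlation of 0.60 across the 37 genes, and 23 (62.2%) had the same sign, against 0.74 and 74.7% over 5284 genes.

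**Figure D4:**
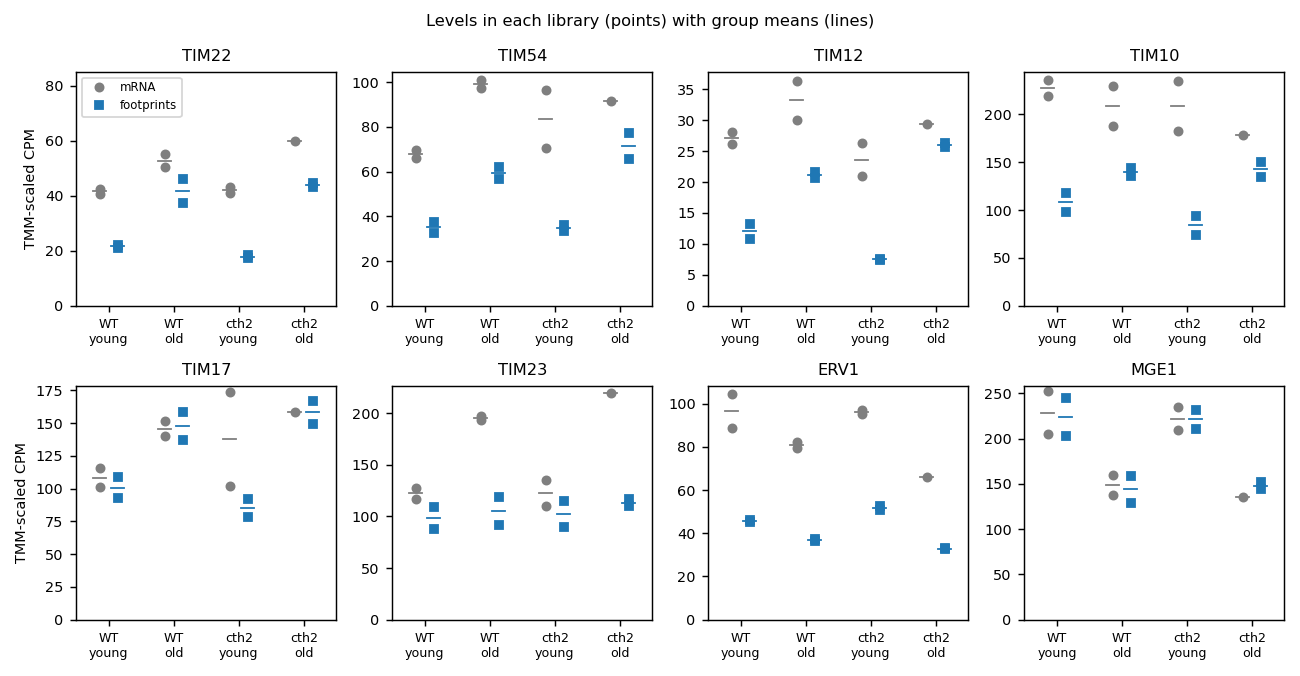
TMM CPM of 8 import genes in every library (vertical axes start at 0), with mRNA as grey circles, footprints as blue squares and group means as lines, for young and old cells of both strains. TIM22, TIM54, TIM12, TIM10 and TIM17 have old footprint libraries above young ones in both strains, TIM23 is higher in old cells in mRNA but overlaps in footprints, and ERV1 and MGE1 lie lower in old cells on this scale.

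Whether the age change itself differed between strains was tested as an interaction in the footprint data, and no gene was called (0.0% of 5308 genes; edgeR gave 152 genes at an unadjusted p under 0.05 and DESeq2 called 4). The members with the highest values were TIM12, with a difference of 0.98 (SE 0.26, adjusted p = 1.00), and TOM5, with 0.62 (SE 0.31, adjusted p = 1.00). The lowest were TIM9 at -0.68 (SE 0.33, adjusted p = 1.00) and ERV1 at -0.34 (SE 0.19, adjusted p = 1.00). At an unadjusted p under 0.05 there were 2 members. TOM5 footprints were at 44.9 and 52.1 CPM in young and 56.2 and 48.7 CPM in old wild type, and at 49.5 and 34.0 CPM against 75.7 and 62.4 CPM in cth2Δ. The 7 calls in cth2Δ against 1 in wild type are thus not shown to be a difference between the strains.

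Loss of Cth2 did not give a called difference in any of the 37 genes, in young mRNA or in young or old footprints. The deleted gene TIS11 was not called by edgeR in these tests either. Its log2 change was -4.01 in young mRNA (adjusted p = 0.715 by edgeR) and -4.56 in young footprints. In old footprints it was -4.88 (adjusted p = 0.127 by edgeR). The absence of calls therefore does not show that the strains are alike. In young mRNA, 0.0% of 5991 genes were called by edgeR and 0 by DESeq2, and 99 genes and 0 members had an unadjusted p under 0.05. The members with the highest log2 fold changes (cth2Δ over wild type) were TIM44, the anchor of the motor on the channel, at 0.38 (SE 0.20, adjusted p = 1.00) and TIM9 at 0.35 (SE 0.43, adjusted p = 1.00). TIM44 mRNA was at 103 and 91.7 CPM in wild type and 142 and 111 CPM in cth2Δ. TIM9 mRNA was at 11.9 and 10.2 CPM in wild type and at 19.5 and 8.58 CPM in cth2Δ, so its value rests on cth2Δ library 1, and without that library it was -0.36. The lowest were TOM6, an assembly factor of TOM, at -0.44 (SE 0.26, adjusted p = 1.00), and TIM8 at -0.33 (SE 0.23, adjusted p = 1.00), and in TOM6 the strains overlapped. Both values moved with wild-type library 2, without which they were -0.07 and -0.03, and without wild-type library 1 they were -0.73 and -0.58. TIM44 was at 0.19 without cth2Δ library 1. TOM22, with the AU-rich motif shown above, had mRNA at 190 and 171 CPM in wild type and 237 and 184 CPM in cth2Δ, with overlap. Of the other members with that motif, TIM50 had a log2 fold change above 0 and TOM7 one below 0.

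In young footprints 0.0% of 5308 genes were called by edgeR and 1 by DESeq2, and 92 genes had an unadjusted p under 0.05, among them 1 member. That member was TIM12, at 13.3 and 10.9 CPM in wild type and 7.43 and 7.60 CPM in cth2Δ, a log2 change of -0.68 (SE 0.20, adjusted p = 1.00), with no overlap. TIM10 was next at -0.36 (SE 0.18, adjusted p = 1.00), and the highest values were those of TIM9 at 0.42 (SE 0.23, adjusted p = 1.00) and TOM6 at 0.25 (SE 0.18, adjusted p = 1.00). In old footprints 0.0% of genes were called, 270 genes and 0 members had an unadjusted p under 0.05, and DESeq2 called 22 genes and 0 members. The members ranged from TIM9 at -0.26 (SE 0.24, adjusted p = 1.00) and TIM21 at -0.18 (SE 0.19, adjusted p = 1.00) to TIM44 at 0.35 (SE 0.15, adjusted p = 0.990) and TOM5 at 0.39 (SE 0.22, adjusted p = 1.00). Without 1 library these values were -0.40 to -0.10 for TIM9, -0.25 to -0.13 for TIM21, 0.21 to 0.47 for TIM44 and 0.25 to 0.53 for TOM5. With only the old footprint libraries in the fit, 323 of 5252 genes and 0 members were called. That fit had 966 genes and 2 members at an unadjusted p under 0.05. Old TIM12 footprints were at 21.6 and 20.6 CPM in wild type and 26.3 and 25.7 CPM in cth2Δ, the reverse order of young cells. SSC1 was at 2676 and 2776 CPM in old wild type and 2606 and 2489 CPM in old cth2Δ, and HSP60 at 2214 and 2229.6 CPM against 2045 and 1939.9 CPM.

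**Figure D5:**
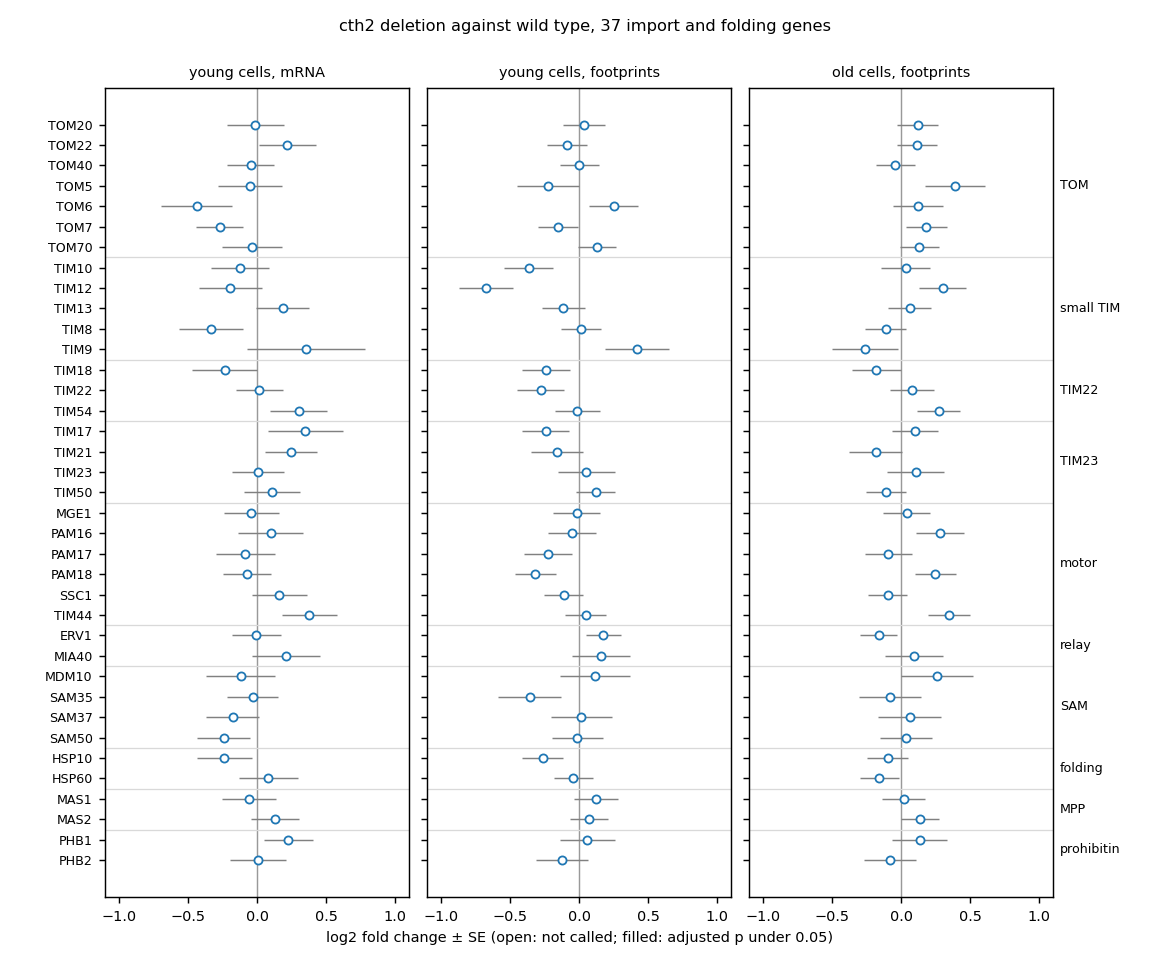
Log2 fold change of cth2Δ over wild type (horizontal axis) with its SE for each of the 37 genes, grouped by role, in young mRNA, young footprints and old footprints. All points are open, as none has an adjusted p under 0.05, and the point farthest from 0 is TIM12 in young footprints at -0.68.

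Translational efficiency, the footprint level relative to mRNA, was compared between old and young wild type through the assay-by-age interaction. No member was called, beside 0.0661% of 6050 genes (4 genes). At an unadjusted p under 0.05 there were 1 of the 37 members and 410 of the 6050 genes. The highest log2 changes with age were those of TIM22 at 0.62 (SE 0.21, adjusted p = 0.601) and TIM12 at 0.53 (SE 0.26, adjusted p = 0.770), and the lowest those of TIM23 at -0.56 (SE 0.28, adjusted p = 0.777) and TOM20, a presequence receptor, at -0.44 (SE 0.25, adjusted p = 0.819). Per the labels both assays of a replicate come from 1 lysate. Across genes the replicate difference correlated between the assays at 0.71 in young and only 0.13 in old wild type. The fit was also made with the lysate as a block. It called 6.79% of genes and 1 member, TIM23, at -0.57 (SE 0.18, adjusted p = 0.0388): its mRNA was higher in old cells while its footprints, at 87.5 and 109 CPM in young and 92.1 and 118 CPM in old wild type, overlapped. With that block TIM22 was at 0.61 (SE 0.24, adjusted p = 0.125).

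Between the strains in young cells, translational efficiency gave 0.0% of genes called without the block, with 107 genes and 0 members at an unadjusted p under 0.05 and 0 calls by DESeq2, and 0.0661% with the lysate block, none a member. The extremes among the members were TOM6 at 0.66 (SE 0.32, adjusted p = 1.00), TIM8 at 0.32 (SE 0.27, adjusted p = 1.00), TIM12 at -0.51 (SE 0.28, adjusted p = 1.00) and TIM17 at -0.62 (SE 0.33, adjusted p = 1.00). TIM17 mRNA in young cth2Δ was at 174 CPM in library 1 and 102 CPM in library 2, which is wider than the difference between the strains. Without the RNA-seq library 1 of cth2Δ the value of TIM17 was -0.13 and that of TIM12 -0.28. Without the RNA-seq library 2 of wild type TOM6 was at 0.32 and TIM8 at 0.04, and without library 1 at 1.01 and 0.62.

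The single RNA-seq library of old cth2Δ cells allows no test. Against the mean of the young cth2Δ libraries 16.3% of genes had an absolute log2 ratio above 1, and against the mean of old wild type 2.3% did. No member passed that size in either. The ends of the range against young cth2Δ were TIM21, at 49.9 CPM against a mean of 97.5 CPM (log2 ratio -0.96), and TIM23, at 219.9 CPM against a mean of 123 CPM (0.85). TIM23 was thus the member with the highest ratio of old to young mRNA in cth2Δ as in wild type. Against old wild type the ends were SAM37 (-0.53) and TOM5 (0.38). SSC1 mRNA was at 1055 CPM and HSP60 mRNA at 1069 CPM in this library.

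A further 35 genes of mitochondrial protein sorting, folding and proteolysis were read beside the 37. None was called in wild-type mRNA or between the strains. In wild-type footprints 2 of 35 were called (5.71%, beside the 2.98% of all genes), both higher in old cells: SOM1 at 1.98 (SE 0.32, adjusted p = 0.0275) and IMP1 at 0.98 (SE 0.19, adjusted p = 0.0480), which both belong to the inner membrane peptidase. That number fell to 0 with replicate number as a block or with these libraries alone, and to 1 with DESeq2. Those fits called 46, 74 and 319 genes in all. The calls were also lost without any 1 library, in fits with fewer calls over all genes. In cth2Δ footprints 6 of 35 were called (17.1%, beside the 17.2% of all genes). With the block 3 were called and with these libraries alone 2, in fits that called 252 and 164 genes in all. The number also fell without either old library or young library 2, in fits with fewer calls over all genes. The 5 higher were SOM1 at 2.28, the mitochondrial Hsp70 ECM10 at 2.21, MIM2 at 1.29 and MIM1 at 1.16, which insert helical proteins in the outer membrane, and the insertase OXA1 at 0.68. The 1 lower was MIC60, a cristae junction protein, at -0.85 (SE 0.22, adjusted p = 0.0420). The matrix disaggregase HSP78 had -1.22 in wild-type and -1.75 in cth2Δ footprints (adjusted p = 0.199 and 0.0529) and was not called.

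By the presence of the Puf3 motif, the 27 genes with a match had a median log2 fold change of age of -0.03 in wild-type footprints and 0.15 in cth2Δ footprints, and the 10 without a match had -0.03 and 0.00. For all 918 genes with a match the medians were 0.04 and 0.05. All 7 members called in cth2Δ had a match, as do 27 of the 37 members. Over all genes tested and scanned, 16.2% of the 918 with a match and 17.4% of the 4342 without one were called in that comparison. TOM40, TOM70 and HSP60, which also had a match, had values below 0 in both strains.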

How the data were processed

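The deposited files give a count of reads and a length for each gene in each library, per the file headers, with no normalisation. Per the submitters' processing notes the tools include cutadapt 3.4, Bowtie 1.1.2 and STAR 2.7.9a, and the build is R64; the counting program and the use of strand are not given in the sources used here, so reads of overlapping or antisense genes may be shared. Of 7127 identifiers 6047 matched R64, and 1080 did not. No member overlaps another matched gene or has a copy with at least 90% identity over 50% of its length (BLAST+ 2.17.0).

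Counts were tested in R 4.3.3 with edgeR 4.0.16 (TMM, filterByExpr by group, robust quasi-likelihood fit, 1 mean per group), over 7 RNA-seq libraries, 8 ribosome profiling libraries, or all 15 for translational efficiency, in 9 comparisons. Benjamini-Hochberg adjustment ran over all genes tested, and each SE was obtained by dividing the size of the log2 fold change by the root of its F statistic. The script was run on simulated data in which all libraries varied alike and independently. The young and old libraries here did not vary alike, so that run does not show how reliable the calls are. Nothing in the labels says that libraries of a group come from separate cultures. The tests set differences against the spread between libraries, which may be technical and whose source was not tested. The replicate difference was largely shared by the assays of a lysate in young cells (correlation 0.71 in wild type, 0.76 in cth2Δ). In old wild type it was hardly shared (0.13).

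Levels of all 37 genes were computed. A member was named with its test where it was called or among the 2 highest and 2 lowest log2 fold changes, and SSC1 and HSP60 levels are given throughout; the level pairs of other members, the pathway genes and the sequences printed were chosen after values were seen. The members, the further lists and the tests were chosen with earlier results of these data known. For log2 ratios to a single library a prior count of 2 was used. The lysate pairs the assays per the labels: the replicate difference correlated across genes between them at 0.71 in wild-type young, 0.76 in cth2Δ young and 0.13 in wild-type old cells. Alternatives were the replicate or lysate block, size factors of DESeq2, upper-quartile factors, DESeq2 1.42.0, no filter, the comparison's own groups alone, each library left out, shorter motifs and windows, and, chosen after seeing the data, library totals and a crossed replicate block.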

Additional observations from a re-analysis of the deposited data

How the results depend on the processing

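The number of members called was 1 with library totals in wild-type mRNA. In wild-type footprints it was 1 in the main setting, 0 with the replicate block, with the crossed replicate block and with the groups alone, 0 without any 1 library (lowest 0, highest 0), and 7 with library totals, all higher in old cells. In cth2Δ footprints it was 7, 3 with the replicate block or the crossed block, 2 with the groups alone, 0 to 7 without 1 library, and 20 with library totals, all higher. In translational efficiency of wild-type age it was 1 with the lysate block. The members' median minus that of all genes was -0.04 in wild-type mRNA and 0.00 to 0.01 without young library 2 or old library 1. MDM10 in wild-type footprints turned to 0.01 with library totals, and TIM9 in young mRNA between the strains ranged from -0.36 to 0.82 without 1 library. The AU-rich motif was in 1 member in the 150 nt window. Over all genes, wild-type mRNA gave 57 calls, 0 with the replicate block, 260 with DESeq2, 91 with the groups alone, 212 with library totals and 1 to 15 without 1 library. Wild-type footprints gave 158, 46 with the block, 59 crossed, 319 with DESeq2, 74 alone, 691 with totals and 14 to 77 without 1 library, and cth2Δ footprints 914, 252, 251, 932, 164, 1827 and 46 to 1206 in the same order. Translational efficiency with age gave 4, 411 with the lysate block and 20 with DESeq2. Old footprints between the strains gave 0, 22 with DESeq2 and 323 alone. The causes were not tested. In fits that leave a group with 1 library, that library is assumed to vary like the others.

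Replicate numbers do not pair libraries across groups: the replicate difference correlated at -0.73 (mRNA) and -0.80 (footprints) between the young strains and at -0.01 to -0.18 between ages. Young wild-type library 1 thus varied with young cth2Δ library 2. A block crossed that way called 23 genes in young mRNA and 51 in young footprints between the strains, with 0 members in both. Of the members, 16 of 37 in mRNA and 23 of 37 in footprints varied with that pairing, against 70.5% and 78.7% of all genes. The lowest count of a member, 21, was that of TIM12 in young cth2Δ footprint library 1, and depth limits such low genes.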
